A study of Mus musculus with 14 samples.

Results

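The values describe 7 genes of the RAS, RAF and MAP kinase pathway as DNA copy level in single mouse cells: Nras and Hras, Braf, Map2k1 and Map2k2, Mapk3, and Nf1. They were taken by name from 49554 RefSeq genes placed on chromosomes 1 to 19 and X, and all 7 were found. For each gene, the genome bin that holds the gene's midpoint and the neighbouring bin on each side were averaged, and each cell was divided by its own median over chromosomes 1 to 19. A copy level of 1 is therefore the median autosome of that cell, whatever the number of copies behind it. The level is not an absolute copy number, and it says nothing of expression or of point mutations.

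RAS proteins are small GTPases of the inner cell membrane that switch on when growth factor receptors fire. They recruit RAF kinases, which phosphorylate the MEK kinases, which in turn phosphorylate the ERK kinases that act on many targets in the cytoplasm and nucleus. Neurofibromin, the product of Nf1, speeds the hydrolysis of GTP on RAS and so acts as a brake. In melanoma this pathway is a frequent site of activating mutation, most often in BRAF or NRAS in patients.

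The study asked whether cells in circulation that carry both tumor and leukocyte markers have a tumor or a host genome. It sorted and amplified 648 single cells of 14 samples by MALBAC, a whole-genome amplification method for 1 cell. In the 9 tumor samples, female C57BL/6J mice of 6-8 weeks had received fluorescently labelled B16F10 cells, a melanoma line of C57BL/6J background, and no drug. These samples gave 43 circulating tumor cells (CTC, from 5 samples), 450 DP cells (from 9 samples) and 46 white blood cells (WBC, from 6 samples), each sorted from blood or lung.

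The other 5 samples are controls. They are 22 B16F10 cells from culture, 24 PltLike cells, 24 Duplike cells and 18 CDP cells, and 21 WBC of untreated mice, called naive WBC here. The labels give the CDP, Duplike and PltLike samples as untreated female C57BL/6J of the same age, and do not spell out these names or DP. Whether a sample is 1 mouse is not stated, so p-values measure only the spread between these samples. The culture, whose cells the labels also class as CTC, and every other control is 1 sample.

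Sorting labels could be checked against the X chromosome level. It lies outside the 7 windows but shares their division by the autosomal median of the cell. It averaged 0.433 of the autosomal median in CTC and 0.406 in the B16F10 culture, against 1.02 in WBC and 0.987 in naive WBC. DP cells stood between at 0.684, and PltLike, Duplike and CDP cells at 0.434, 0.551 and 0.612, although their labels name no tumor. Read depth is not given by the coverage values; the noise between neighbouring bins had a class median of 0.159 in CTC, 0.179 in DP and 0.170 in WBC. No cell identifier occurred in more than 1 sample. Sample P1 differed from the others in the order of its tissues, and sample C1N had the lowest CTC means at Hras and Mapk3. The check of 42 groups given near the end did not mark C1N at these genes. Results are given with and without these samples.

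Each 3-bin window was 1.54 to 1.60 Mb wide and held 32 to 109 RefSeq genes, so a level belongs to a stretch of chromosome and not to the gene alone. Differences between classes were tested with limma over 3810 windows of the genome, with the sample as a block and Benjamini-Hochberg adjustment over all windows at 5%. A class entered in a sample with at least 3 cells, which left samples C1L, C1N, C1R, C2R and C3R for each comparison of classes. Fits on lung cells alone had fewer samples: C1R and C2R for comparisons with CTC, and C1N, C1R and C2R for DP minus WBC. All 7 windows passed the filter on bins capped at the maximum of the table.

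Between CTC and WBC, Braf, Nras and Nf1 were higher in CTC and Map2k2 was lower, while Hras, Map2k1 and Mapk3 did not pass the test. So 3 of 7 genes were higher, beside 18.7% of all windows, and 1 of 7 was lower, beside 30.8%. Between DP and WBC, 2 of 7 genes were higher, namely Braf and Nras, beside 14.6% of all windows. Between CTC and DP, 2 of 7 were higher in CTC, namely Braf and Nf1, beside 11.3% of all windows. No gene was lower in DP than in WBC, beside 25.9% of all windows, and none was lower in CTC than in DP, beside 18.5%. The median difference over the 7 genes was 0.021 (log2) for CTC minus WBC, beside -0.024 over all windows. With the autosomal mean as the scale, CTC minus WBC turned positive for Hras (0.047) and Mapk3 (0.035), while the median over all windows was 0.087. On that scale 4 of 7 genes were higher in CTC than in WBC and 0 lower, beside 1835 and 949 of 3810 windows. Map2k1 passed there (0.13, limma adjusted p = 0.00232) and Map2k2 did not. For DP minus WBC 4 of 7 were then higher, beside 1676 of 3810 windows, with Hras (0.086, adjusted p = 0.0390) and Nf1 (0.18, 0.00789) added. The median over all windows was 0.079. For CTC minus DP 3 of 7 were higher, beside 503 of 3810 windows, with Nras added (0.13, 0.0403). These comparisons share samples and classes, so their counts are not independent of each other.

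**Figure D1:**
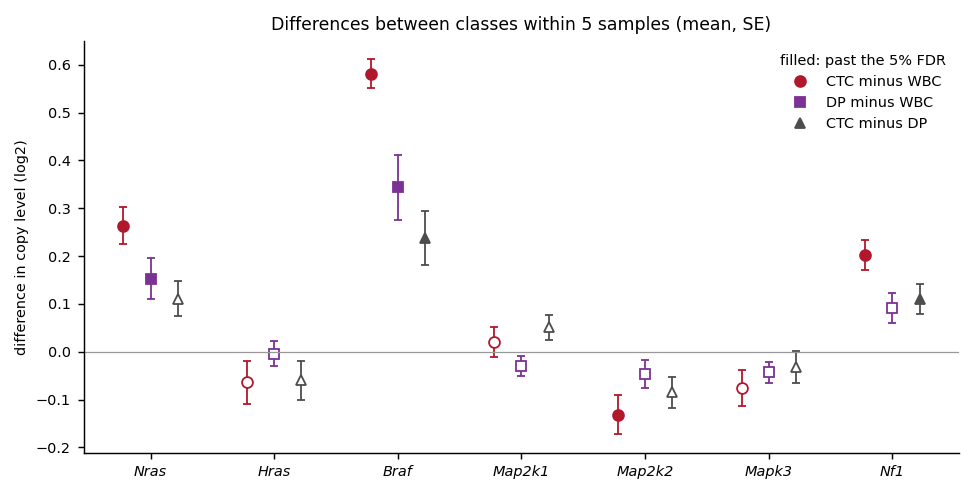
Difference in copy level (log2, y axis) for each gene between CTC and WBC, DP and WBC, and CTC and DP, fitted within 5 samples. Bars are standard errors and filled symbols passed the 5% false discovery rate; Braf has the highest value in each of the 3 comparisons.

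Nras, 1 of the RAS GTPases, lies at chromosome 3:103058285-103067914 (mm10), whole within 1 bin. Its copy level in CTC was 1.18 in C1L, 1.11 in C1N, 1.22 in C1R, 1.26 in C2R and 1.18 in C3R. In WBC of the same samples it was 1.04, 0.993, 0.990, 0.967 and 0.960. The lowest CTC sample stood above the highest WBC sample, so the groups did not overlap. The difference of CTC minus WBC was 0.26 ± 0.039 (log2, SE; limma adjusted p = 7.41e-05), and it was positive in 5 of 5 samples. The share of all windows whose groups did not overlap was not counted, which also holds for the genes below. Of 3810 windows, 1886 passed this comparison in either direction.

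Over the 9 DP samples, Nras ran from 0.947 in C2N over a median of 1.09 to 1.19 in P2. The DP range thus covered the whole WBC range and reached into the CTC range. DP exceeded WBC by 0.15 ± 0.042 (log2, SE; limma adjusted p = 0.0265; 5 of 5 samples), and this call was lost without C1L (0.15, adjusted p = 0.0843), C2R (0.13, 0.0999) or C3R (0.12, 0.0778). Among lung cells alone DP minus WBC was -0.020 (adjusted p = 0.961). CTC minus DP was 0.11 ± 0.036, which did not pass (limma adjusted p = 0.0554; 5 of 5 samples). It passed in 6 of 19 alternatives, among them the median of the 3 bins (0.11, adjusted p = 0.0444) and the fit without C3R (0.13, 0.0376). Another was lung cells alone (0.27, limma adjusted p = 1.69e-05), which rests on only C1R and C2R. The B16F10 culture averaged 1.17 ± 0.092 (SD over 22 cells), against 0.976 ± 0.059 in naive WBC (SD over 21 cells).

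At single cells, Nras did not separate the classes. Of 43 CTC, 32 stood above the highest WBC or naive WBC (1.16), which is 74.4% (exact 95% interval 58.8 to 86.5%). The same held for 14 of 22 culture cells and 204 of 450 DP cells. The remaining CTC reached down to 0.994. Exact intervals here cover the counting of cells only.

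Hras, the other RAS gene of the list, lies at chromosome 7:141189934-141194019, about 4.25 Mb from the end of the last bin of the chromosome. It averaged 0.911 ± 0.059 in CTC (SD, n = 5), 0.955 ± 0.017 in DP (n = 9) and 0.951 ± 0.033 in WBC (n = 5). The culture stood at 0.949 and naive WBC at 0.995. The difference of CTC minus WBC was -0.064 ± 0.046 (log2, SE; limma adjusted p = 0.274), and 3 of 5 samples were lower. DP minus WBC was -0.0042 ± 0.026 (limma adjusted p = 0.928), and CTC minus DP was -0.060 ± 0.041 (limma adjusted p = 0.330).

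One sample set much of the CTC spread at Hras. CTC averaged 0.816 in C1N, against 0.901 to 0.960 in the other 4 samples. Without C1N the CTC mean was 0.935 ± 0.028 (SD, n = 4) and CTC minus WBC was -0.0069. The C1N cells are described with Mapk3, which lies on the same chromosome.

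Braf, the RAF kinase of the list, lies at chromosome 6:39603231-39725658, within 1 bin. Its copy level in CTC was 1.40 in C1L, 1.46 in C1N, 1.41 in C1R, 1.44 in C2R and 1.37 in C3R. In WBC of these samples it was 0.907, 1.00, 0.956, 0.967 and 0.904. No sample of one class came near the other class. CTC exceeded WBC by 0.58 ± 0.030 (log2, SE; limma adjusted p = 1.27e-08; 5 of 5 samples), a fold of 1.50.

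The controls gave a like ratio. The B16F10 culture averaged 1.41 ± 0.110 (SD over 22 cells), against 0.940 ± 0.074 in naive WBC (SD over 21 cells), a fold of 1.50 with 1 sample each and no test. Over naive WBC, CTC stood at 1.50 ± 0.038 (SD, n = 5), DP at 1.26 ± 0.114 (n = 9) and WBC at 1.01 ± 0.045 (n = 5). Among the other controls, the fold over naive WBC was 1.47 in PltLike, 1.41 in Duplike and 1.36 in CDP cells.

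Each single bin of the Braf window showed the difference. The bin before stood at 1.51 ± 0.046 in CTC, against 1.03 ± 0.031 in WBC (SD, n = 5 each). The bin with Braf itself was lower in both, at 1.27 ± 0.035 in CTC and 0.810 ± 0.037 in WBC. The bin after stood at 1.46 ± 0.091 in CTC and 0.998 ± 0.076 in WBC. The median of the rest of chromosome 6 was 1.46 ± 0.056 in CTC and 0.984 ± 0.017 in WBC, beside window means of 1.42 ± 0.036 and 0.948 ± 0.042.

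In single cells Braf separated CTC from WBC completely. The lowest of 43 CTC was at 1.25 and the highest of 67 WBC and naive WBC cells at 1.12. All 43 CTC (exact 95% interval 91.8 to 100%) and all 22 culture cells stood above that highest value. So did 18 of 18 CDP, 23 of 24 PltLike and 21 of 24 Duplike cells. DP cells were split, with 265 of 450 above it (58.9%, interval 54.2 to 63.5%).

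**Figure D2:**
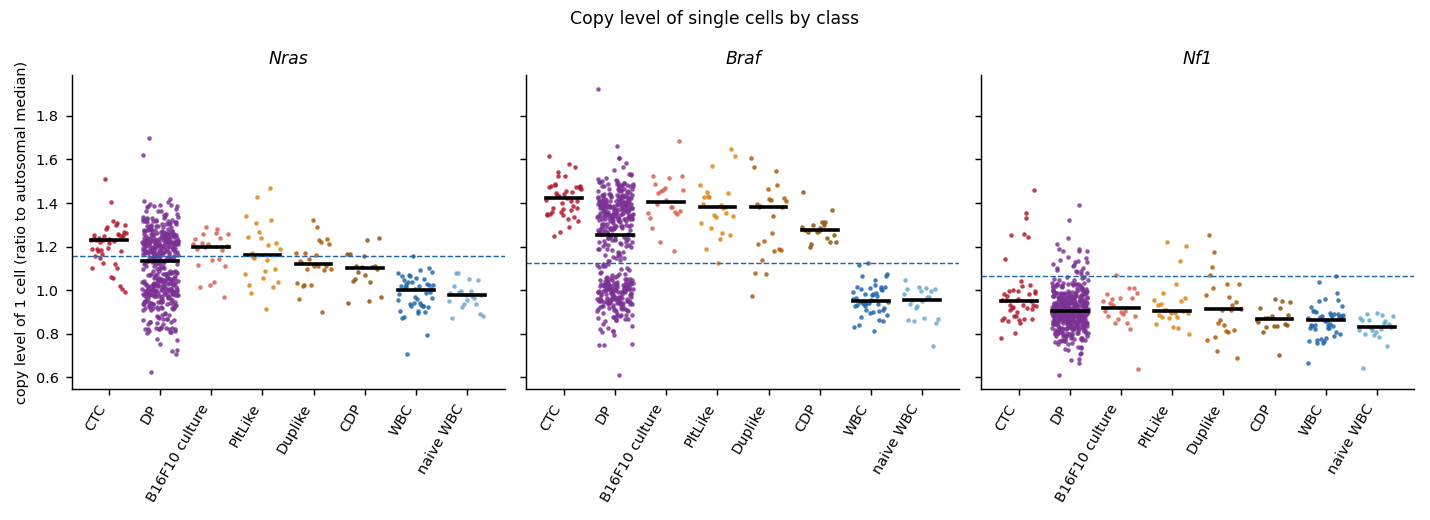
Copy level of every cell (ratio to its own autosomal median, y axis) at Nras, Braf and Nf1, by class. Black bars are class medians and the dashed line is the highest WBC or naive WBC cell; all 43 CTC lie above it at Braf, 32 at Nras and 7 at Nf1.

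DP cells exceeded WBC at Braf by 0.34 ± 0.068 (log2, SE; limma adjusted p = 0.00957; 5 of 5 samples). The call was lost among lung cells alone (0.019, adjusted p = 0.965) and with the median over cells in place of the mean (0.37, 0.0595). Over the 9 DP samples the level ran from 1.03 in C2N over a median of 1.13 to 1.32 in C3R. CTC exceeded DP by 0.24 ± 0.057 (limma adjusted p = 0.0247; 5 of 5 samples). That call was lost without C1N (0.19, adjusted p = 0.0664), C1R (0.21, 0.0900) or C2R (0.24, 0.0788), and among blood cells alone (0.13, 0.166); it held in 13 of 19 alternatives.

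Map2k1 encodes MEK1 and lies at chromosome 9:64185769-64253605. It averaged 0.979 ± 0.040 in CTC (SD, n = 5), 0.945 ± 0.029 in DP (n = 9) and 0.964 ± 0.013 in WBC (n = 5), with 0.914 in culture and 0.960 in naive WBC. CTC minus WBC was 0.021 ± 0.031 (log2, SE; limma adjusted p = 0.615), DP minus WBC -0.030 ± 0.020 (adjusted p = 0.314) and CTC minus DP 0.051 ± 0.026 (adjusted p = 0.188). The 3 classes overlapped in samples and in cells.

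Map2k2 encodes MEK2 and lies at chromosome 10:81105913-81124697. Its window was low in every class, and the bin after the gene stood at 0.378 in CTC, 0.398 in DP, 0.410 in WBC, 0.422 in culture and 0.435 in naive WBC. The copy level in CTC was 0.691 in C1L, 0.622 in C1N, 0.636 in C1R, 0.707 in C2R and 0.681 in C3R. In WBC of these samples it was 0.708, 0.732, 0.757, 0.732 and 0.717. The groups did not overlap, but the highest CTC sample and the lowest WBC sample differed by less than the SD of either group.

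CTC were lower than WBC at Map2k2, by -0.13 ± 0.041 (log2, SE; limma adjusted p = 0.0174; lower in 5 of 5 samples). The call was lost without C1N (-0.11, adjusted p = 0.0531), without C1R (-0.10, 0.0741) and with the autosomal mean in place of the median (-0.021, 0.674). It was also lost among lung cells alone (-0.088, adjusted p = 0.252), with only C1R and C2R. Without division by the autosomal median Map2k2 was 0.91, while the median over all windows was 1.02. The bin of the gene itself stood at 0.859 ± 0.057 in CTC and 0.939 ± 0.024 in WBC (SD, n = 5 each). The rest of chromosome 10 stood at 0.905 ± 0.052 in CTC and 0.999 ± 0.012 in WBC. Over 9 DP samples Map2k2 ran from 0.694 over 0.708 to 0.732, and the culture stood at 0.688 and naive WBC at 0.701. DP minus WBC was -0.046 ± 0.029 (limma adjusted p = 0.288) and CTC minus DP -0.085 ± 0.032 (adjusted p = 0.0864); DP minus WBC passed with a pseudocount of 0.5 (-0.072, adjusted p = 0.0352).

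Mapk3 encodes ERK1 and lies at chromosome 7:126759626-126765816. It averaged 0.927 ± 0.048 in CTC (SD, n = 5), 0.946 ± 0.026 in DP (n = 9) and 0.977 ± 0.020 in WBC (n = 5), with 0.921 in culture and 0.929 in naive WBC. CTC minus WBC was -0.076 ± 0.038 (log2, SE; limma adjusted p = 0.122), and 4 of 5 samples were lower. Without C1N the CTC mean was 0.948 ± 0.019 (SD, n = 4) and CTC minus WBC was -0.040. DP minus WBC was -0.043 ± 0.023 (adjusted p = 0.199) and CTC minus DP -0.033 ± 0.034 (adjusted p = 0.531).

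Some CTC of C1N had low levels at both chromosome 7 genes. In 4 of 6 CTC of C1N, all from blood, Hras lay at 0.695 to 0.783 and Mapk3 at 0.765 to 0.823, below every WBC and naive WBC cell (lowest 0.826 at Hras and 0.838 at Mapk3). The rest of chromosome 7 was also low in these cells, at 0.827 to 0.853. One lung CTC of C2R had the same pattern, with Hras at 0.732, Mapk3 at 0.726 and the rest of chromosome 7 at 0.728. None of the other 38 CTC was below WBC at both genes, and none of 22 culture cells. In DP this held for 16 of 450 cells, spread over 8 of 9 samples, and in Duplike and PltLike for 2 of 24 each. These cells were picked by their values, so no test was made.

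The same 4 C1N cells had levels of Braf at or above the CTC mean and low levels of Nras. Their Braf was 1.45 to 1.56, their Nras 0.994 to 1.12 and their Map2k2 0.583 to 0.622. The C2R cell had Nras at 1.30 and Map2k2 at 0.697. Across 43 CTC, Hras and Mapk3 had a Pearson r of 0.71, against 0.41 over 22 culture cells and 0.084 over 67 WBC and naive WBC cells. The pair also went together over 450 DP cells (0.48), 24 PltLike (0.53) and 24 Duplike cells (0.36), and less over 18 CDP cells (0.20). Points of a class share sorting and amplification, and both genes share a chromosome.

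Nf1, the brake on RAS, lies at chromosome 11:79339590-79581609 and reaches over 2 bins of its window. Its copy level in CTC was 1.10 in C1L, 0.967 in C1N, 0.954 in C1R, 1.02 in C2R and 0.957 in C3R. In WBC of these samples it was 0.913, 0.823, 0.870, 0.883 and 0.822. The groups did not overlap. CTC exceeded WBC by 0.20 ± 0.032 (log2, SE; limma adjusted p = 1.32e-04; 5 of 5 samples). Lung cells alone, with only C1R and C2R, did not pass (0.13, adjusted p = 0.0808).

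The 9 DP samples ran from 0.883 over a median of 0.916 to 0.951, below all CTC samples and overlapping WBC. DP minus WBC was 0.092 ± 0.031, which did not pass (limma adjusted p = 0.0582; 5 of 5 samples). It passed in 5 of 19 alternatives, among them blood cells alone (0.12, adjusted p = 0.00871), samples with at least 1 cell per class (0.087, 0.0461) and the fit without C1R (0.11, 0.0472). CTC exceeded DP by 0.11 ± 0.031 (limma adjusted p = 0.0367; 5 of 5 samples). That call was lost without C1L (0.088, adjusted p = 0.0788), C1N (0.12, 0.0681), C1R (0.11, 0.113) or C2R (0.10, 0.121), and it held in 8 of 19 alternatives. The culture averaged 0.916 ± 0.087 (SD over 22 cells), against 0.829 ± 0.058 in naive WBC (SD over 21 cells), a fold of 1.11.

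A minority of CTC carried the highest Nf1 levels. In 7 of 43 CTC (16.3%, exact 95% interval 6.81 to 30.7%) Nf1 lay above every WBC and naive WBC cell (highest 1.07), at 1.14 to 1.46. They came from C1L (1 cell), C1R (2), C2R (3) and C3R (1). The same held for 1 of 22 culture cells, 26 of 450 DP, 4 of 24 Duplike, 3 of 24 PltLike and 0 of 18 CDP cells. The 0 of 18 allows a share of up to 18.5% by the exact 95% interval.

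In these 7 CTC the rest of chromosome 11 was at 1.08 to 1.14, within the range of the other 36 CTC (0.890 to 1.17). Its median was 1.11 in these 7 and 1.07 in the other 36, so all 7 lay above the median of the others. Map2k1, on chromosome 9, was at 1.01 to 1.20 in them. Across 43 CTC, Map2k1 and Nf1 had a Pearson r of 0.73, and 0.74 after each sample's mean was taken off. It was 0.63 over 24 PltLike cells, 0.19 over 22 culture cells, 0.13 over 450 DP cells and 0.26 over 67 WBC and naive WBC cells. Over 24 Duplike cells it was 0.35, and over 18 CDP cells -0.27. In the 219 DP cells at the deposited coverage level of the CTC, described below, it was 0.34. The cells of a class share sorting, amplification and the scaling by the autosomal median.

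**Figure D3:**
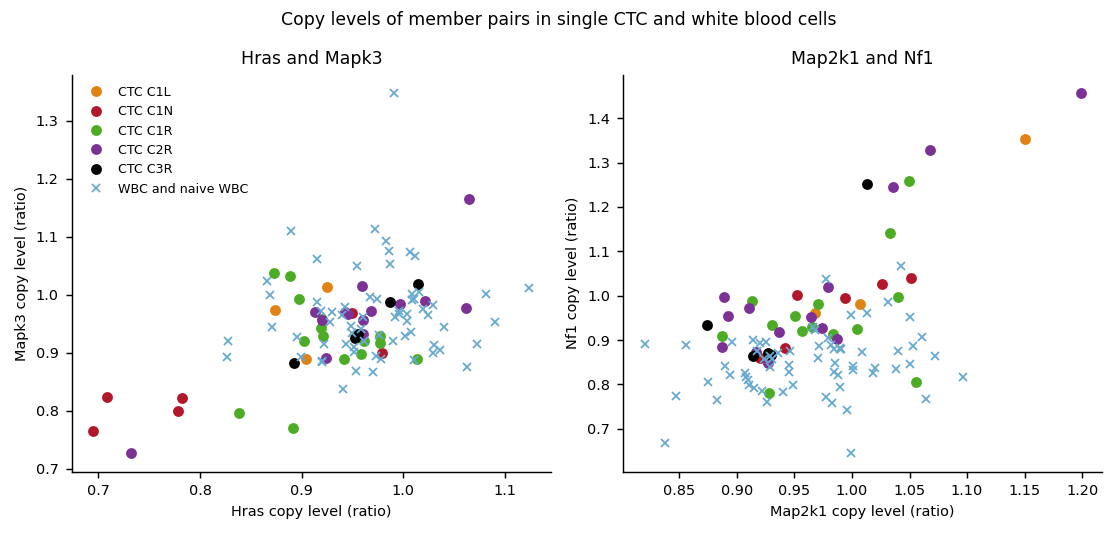
Copy levels (ratio to the autosomal median) of Hras against Mapk3 and of Map2k1 against Nf1, with CTC coloured by sample and WBC with naive WBC as crosses. The lower left of the first panel holds 4 C1N cells and 1 C2R cell; the upper right of the second holds CTC of C1L, C1R, C2R and C3R with Nf1 of 1.14 to 1.46.

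The order of the CTC means over the 7 genes was Braf (1.42), Nras (1.19), Nf1 (0.999), Map2k1 (0.979), Mapk3 (0.927), Hras (0.911) and Map2k2 (0.668). The steps from Braf to Nras, from Nras to Nf1, from Map2k1 to Mapk3 and from Hras to Map2k2 exceeded the larger of the neighbours' sample SDs, and the other 2 steps did not. In WBC the order was Nras (0.991), Mapk3 (0.977), Map2k1 (0.964), Hras (0.951), Braf (0.948), Nf1 (0.862) and Map2k2 (0.729). The first 5 of these differed from their neighbours by less than their sample SDs. Windows also differed within naive WBC, from 0.701 at Map2k2 over 0.829 at Nf1 to 0.995 at Hras.

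**Figure D4:**
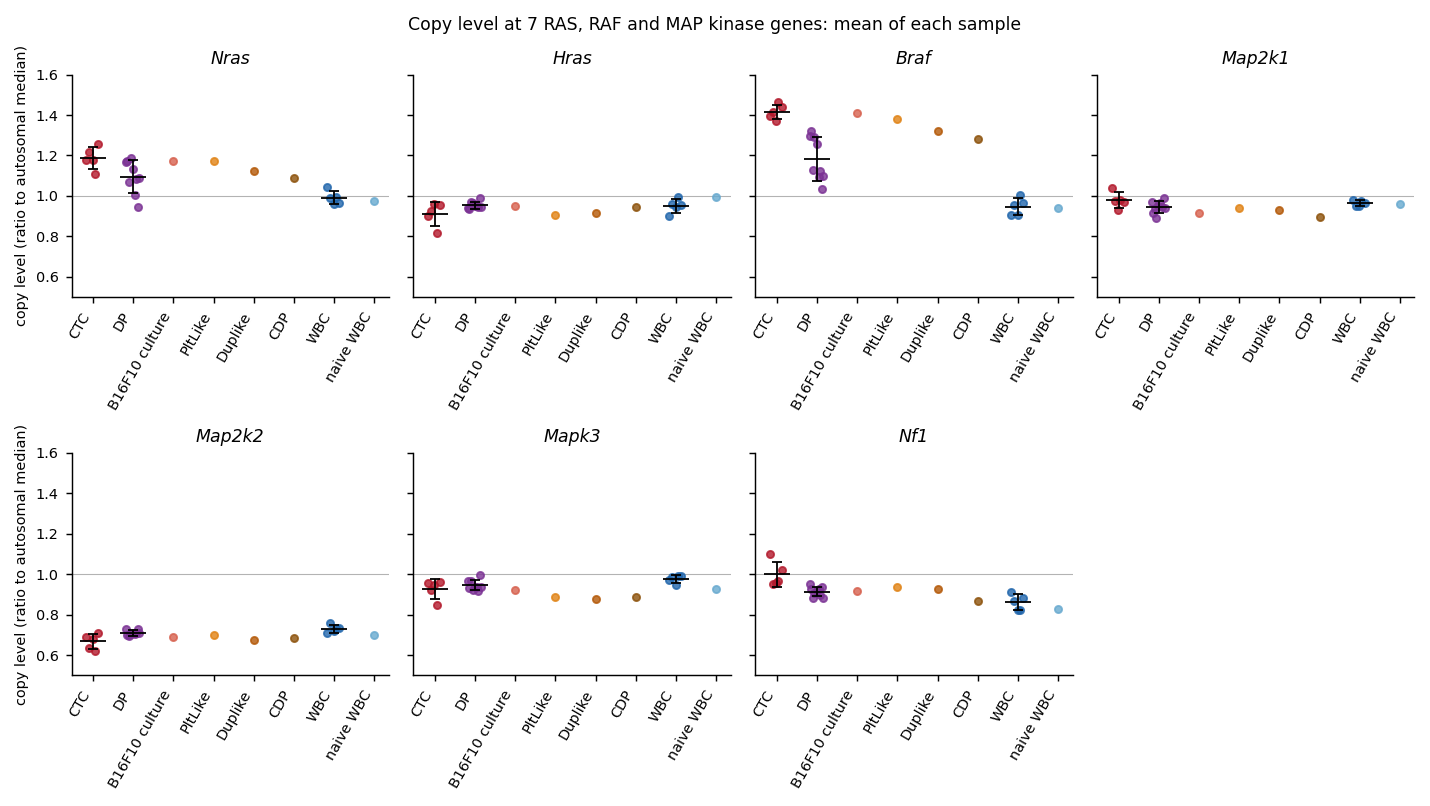
Copy level of each sample (ratio to the autosomal median, y axis, from 0.5 to 1.6) by class for the 7 genes; points are means of at least 3 cells and bars the mean and SD over samples. CTC lie above WBC at Nras, Braf and Nf1, and the DP samples spread between them at Braf.

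Next it was asked whether the genes differ from their own surroundings. From each window's log2 value the median of up to 10 bins on each side was taken off, and CTC were again compared with WBC. None of the 7 genes passed (limma), beside 15.4% of all windows. An unadjusted p under 0.05 was reached by none of them, beside 1162 of 3810 windows. The largest difference was that of Braf, at 0.049 ± 0.026 (log2, SE; limma adjusted p = 0.232). With the bin of Braf alone it was 0.12 and passed (adjusted p = 0.0437). Relative to its surroundings Map2k2 stood at -0.50 in CTC and -0.49 in WBC, and with a pseudocount of 0.5 its difference was -0.063 and passed (adjusted p = 0.0443).

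Next, lung DP were set against blood DP within a sample. With 5 samples none of the 7 genes passed (limma), and 0% of all windows did, with 374 windows at an unadjusted p under 0.05 and a smallest adjusted p of 0.244. Lung minus blood was -0.25 ± 0.104 at Braf (log2, SE; adjusted p = 0.244), -0.15 ± 0.090 at Nras (0.297) and -0.079 ± 0.032 at Nf1 (0.244). The other 4 genes lay between 0.0097 and 0.040.

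At Braf, lung DP stood at 0.998 in C1L, 0.953 in C1N, 0.994 in C1R, 1.10 in C2R and 1.21 in P1. Blood DP of these samples stood at 1.36, 1.19, 1.32, 1.36 and 1.03. Lung DP were thus below blood DP in 4 samples and above them in P1. Without P1, Braf was -0.37 (limma adjusted p = 1.81e-04), Nras -0.23 (adjusted p = 0.0195) and Nf1 -0.10 (adjusted p = 0.0245), and 1738 windows passed. The samples with DP of 1 tissue gave 1.03 in C2N and 1.29 in P2 for lung, and 1.32 in C3R and 1.10 in P4 for blood.

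Whether the excess of DP over WBC depended on the tissue was tested in C1N, C1R and C2R, which had at least 3 cells of both classes in both tissues. The test was added after the values were seen. The excess was larger in blood than in lung for 2 of 7 genes, beside 9.9% of all windows. For Braf the difference was 0.37 ± 0.074 (log2, SE; limma adjusted p = 0.0171; 3 of 3 samples). It was lost without C2R (0.36, adjusted p = 0.0718) and without the ceiling filter (0.37, 0.0544). For Nras it was 0.28 ± 0.076 (adjusted p = 0.0403; 3 of 3 samples), lost without C1R (0.21, 0.119), C2R (0.25, 0.287) or the ceiling filter (0.28, 0.0938). P1 has no WBC and could not enter.

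Tissue moved together with the overall level of the deposited coverage. Each cell's deposited autosomal median lay near 1 of 5 levels, and all WBC and naive WBC lay near 1.82 while all CTC, culture and PltLike cells lay near 3.72. Of lung DP, the share above the level near 1.82 was 14.3% in C1L, 0% in C1N (0 of 14 cells), 2.94% in C1R, 24% in C2R and 72.3% in P1. Of blood DP of these samples it was 87.9%, 54.5%, 91.3%, 100% and 23.9%. The lung share was thus the smaller one in 4 samples and the larger one in P1.

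Within a level, lung and blood DP differed at Braf and Nras by less than the SD over samples of either tissue. Near 3.72, Braf was 1.43 ± 0.137 in lung DP (SD, n = 3 samples) and 1.37 ± 0.065 in blood DP (n = 7). Near 1.82 it was 0.964 ± 0.042 in lung DP (n = 7) and 0.993 ± 0.038 in blood DP (n = 5). Nras near 3.72 was 1.21 ± 0.013 in lung DP and 1.22 ± 0.052 in blood DP, and near 1.82 it was 0.983 ± 0.035 in lung DP and 0.962 ± 0.050 in blood DP. At Hras near 1.82 the gap was larger than either SD, with 0.990 ± 0.034 in lung DP and 0.946 ± 0.042 in blood DP. Levels were split by the data, so these are descriptions with no test.

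Over all DP cells, Braf was 0.972 ± 0.087 near 1.82 (SD over 177 cells), 1.38 ± 0.10 near 3.72 (219 cells), 1.25 ± 0.090 near 5.64 (29 cells), 1.10 ± 0.078 near 7.75 (9 cells) and 1.30 ± 0.118 near 9.59 (16 cells). Nras at these levels was 0.969, 1.22, 1.12, 1.09 and 1.20. Nf1 was 0.875, 0.943, 0.911, 0.930 and 0.895. At Braf, 6 of 177 DP cells near 1.82 and 215 of 219 near 3.72 stood above the highest WBC. All 18 CDP cells lay near 5.64 and averaged 1.28 at Braf.

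**Figure D5:**
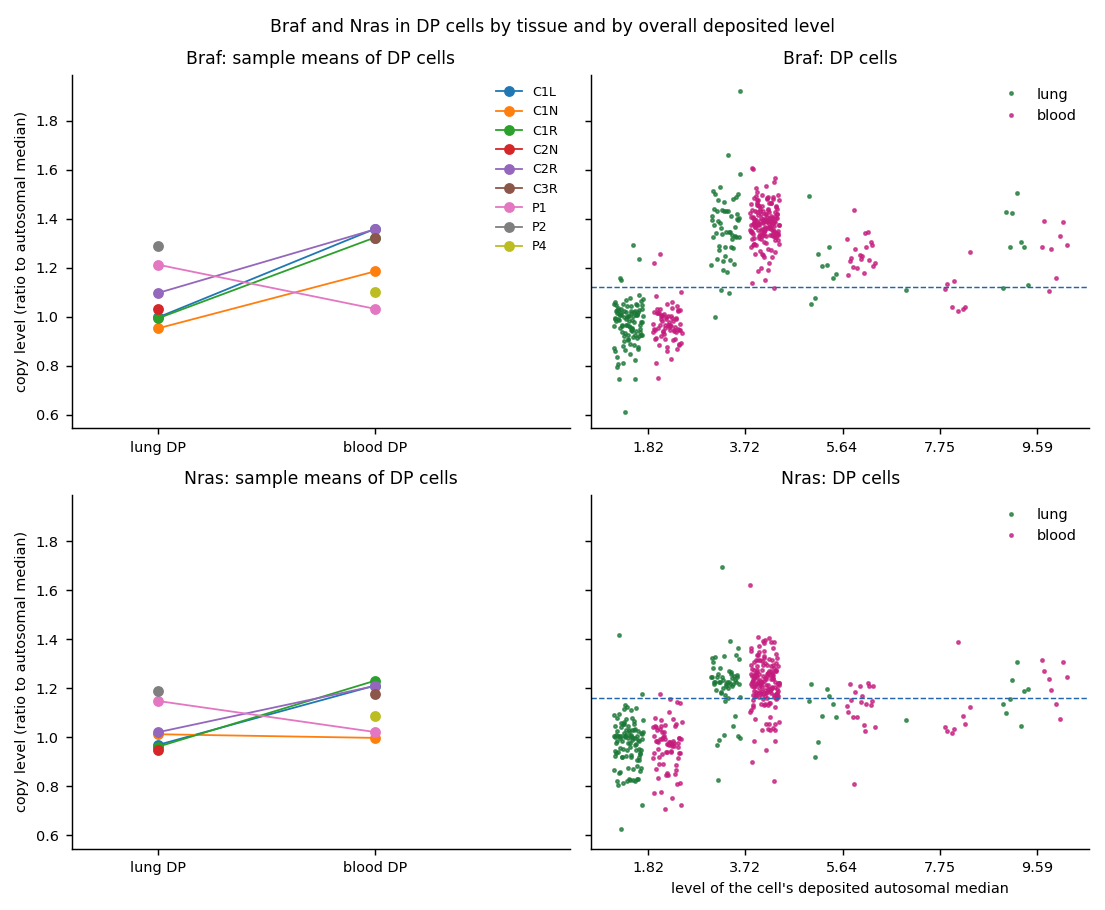
Braf (top) and Nras (bottom) in DP cells. Left, sample means of lung and blood DP, joined within a sample; at Braf lung lies above blood in P1 and below it in C1L, C1N, C1R and C2R. Right, single cells by the level of the deposited autosomal median, lung left of blood at each level, with the highest WBC as a dashed line. The y axis is the ratio to the autosomal median.

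The spread between cells was compared as the SD of log2 levels within a class and sample. Between DP and WBC, 3 of 7 genes had a larger spread in DP, beside 55.9% of all windows. The median log2 ratio over all windows was 0.76, beside 1.30 at Braf, 0.86 at Map2k2 and 0.78 at Nras. The SDs entered without weights, though they came from 3 to 13 WBC and 36 to 81 DP cells per sample. The effect of these unlike cell numbers was not tested. For Braf the SD averaged 0.226 ± 0.053 in DP (SD over 9 samples) and 0.099 ± 0.021 in WBC (n = 5), and the fitted ratio was 2.47 (limma adjusted p = 0.00114; 5 of 5 samples). For Map2k2 it averaged 0.105 in DP and 0.061 in WBC (ratio 1.81, adjusted p = 0.0171), and with the autosomal mean the log2 ratio was -0.0090 (adjusted p = 0.981). For Nras it averaged 0.188 in DP and 0.116 in WBC (ratio 1.72, adjusted p = 0.0247), a call lost without C1L (log2 ratio 0.59, adjusted p = 0.0611), C1R (0.74, 0.0709) or C3R (0.79, 0.0600). Among lung cells alone none of the 3 passed. With a pseudocount of 0.5 the spread of Map2k1 (0.78, adjusted p = 0.0427) and Nf1 (0.65, 0.0492) also passed, and that of Nf1 with the median of the 3 bins (0.64, 0.0439).

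Within 1 level the DP spread at Braf was smaller. It averaged 0.132 near 1.82 and 0.095 near 3.72, each a mean over samples. At Map2k2 it stayed at 0.106 and 0.114. Between CTC and WBC, 0 of 7 genes passed the test of spread (limma), beside 0.525% of all windows. On simulated data this test recovered 0% of changes of 0.5 (log2), so it cannot show that the spreads were alike. An unadjusted p under 0.05 was found in 682 of 3810 windows, and among the 7 genes at Nf1 alone. Its SD averaged 0.207 ± 0.063 in CTC and 0.106 ± 0.033 in WBC (SD, n = 5 each; ratio 1.95, adjusted p = 0.206; larger in CTC in 5 of 5 samples).

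The wider pathway was read from 39 further genes, of which 36 passed the ceiling filter; Gab1, Rap1a and Spry2 did not. Between CTC and WBC, 6 of 36 were higher and 11 lower, beside the 18.7% and 30.8% of all windows. Among genes of 1 role, none of 6 ERK genes and ERK effectors was higher and 5 were lower, and 2 of 5 RAF genes and RAF scaffolds were higher and 2 lower. These genes are not separate stretches of the genome. In the ERK group, Rps6ka1 and Mknk1 share chromosome 4, Rps6ka3 and Elk1 share chromosome X, and Mknk2 lies in the window of Map2k2. In the RAF group, Araf shares its bin with Elk1, and Ksr1 lies in the window of Nf1. Of 8 negative-feedback genes 1 was higher and 3 lower, and of 7 adaptors and exchange factors 1 was higher. With the autosomal mean as the scale, 18 of the 36 were higher and 9 lower, beside 1835 and 949 of 3810 windows. The median over all windows was then 0.087. Between DP and WBC, 5 were higher and 9 lower, beside 14.6% and 25.9% of all windows. Between CTC and DP, 6 were higher and 8 lower, beside 11.3% and 18.5%. With the autosomal mean, DP minus WBC gave 19 higher and 7 lower, beside 1676 and 725 of 3810 windows.

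Among the larger increases in CTC over WBC were those of Rit1, a RAS-like GTPase (0.56 ± 0.035, log2, SE), and Shc1, an adaptor of growth factor receptors (0.53 ± 0.033). Their limma adjusted p-values were 5.21e-08 and 5.99e-08, each with 5 of 5 samples higher. Rit1 and Shc1 lie in neighbouring bins of chromosome 3, which also holds Nras. Their windows overlap, so they are not separate stretches of the genome. The largest decreases were those of the ERK-activated kinase gene Rps6ka3 (-1.78 ± 0.034, adjusted p = 2.31e-12) and of the RAF gene Araf and the ERK target Elk1, which share a bin (-0.93 ± 0.046, adjusted p = 8.51e-09). These 3 genes lie on chromosome X. Without division by the autosomal median Rps6ka3 was at -0.74 and Elk1 and Araf were at 0.11, while the median over all windows was 1.02.

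Over 34 means of class, tissue and sample, the listed gene on another chromosome most like Nf1 was Shc1 (Pearson r = 0.80). It was Mknk2 for Mapk3 (0.68), Araf with Elk1 for Map2k2 (0.64), Sos2 for Hras (0.59) and Ksr1 for Map2k1 (0.37). The means share cells sorted together and 1 scaling per cell. Ksr1 lies in the window of Nf1, and Mknk2 in that of Map2k2.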

How the data were processed

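Genome coverage of single cells amplified by MALBAC was analysed. The authors deposited a signal per bin and cell, a normalised and scaled coverage over 4880 bins (median 538 kb, mm10); its settings are not given in the sources used here. BWA, SAMtools, Picard and Trim Galore, and also featureCounts and HISAT2, are named per the submitters' processing notes, without roles. Class, tissue and sample came from the deposited cell table. No depth is given.

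Each cell was divided by its median over chromosomes 1 to 19. Windows of 3 bins were averaged per cell, then per class and sample with at least 3 cells. Of 4674 windows, 3810 stayed after 338 bins at the ceiling of 10 in 1% of cells or more were left out. Log2 means were fitted in limma 3.58.1 (R 4.3.3) with the sample as a block, without a pseudocount, and adjusted by Benjamini-Hochberg over all windows. The block is the sample itself, since its classes were sorted from it. Tables were handled in Python 3.11.15 with numpy 2.4.6, pandas 2.3.3 and scipy 1.17.1, and figures drawn with matplotlib 3.10.9. Gene positions are RefSeq's on GRCm38.

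On simulated data, changes of 0.5 (log2) were recovered in 100% of windows for CTC minus WBC, 98% for DP minus WBC, 99% for CTC minus DP and 81% for lung minus blood DP. Changes of 0.2 were recovered in 73%, 73%, 76% and 55% in that order. The tests of spread between cells recovered 0% of changes of either size. All 7 genes are named with values, and of the other pathway genes those with the largest differences, of which some are not reported here. The genes and lists were chosen with earlier results of these data known. The comparison of blood with lung for DP minus WBC, the cells picked by value and the CTC levels without 1 sample were chosen after seeing the data. Alternatives covered the window, pseudocount, scaling, filters, block, cells and samples.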

Additional observations from a re-analysis of the deposited data

Results flagged for a closer look

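The DP excess over WBC was larger in blood than in lung at Braf, by 0.37 (log2; limma adjusted p = 0.0171), and at Nras, by 0.28 (adjusted p = 0.0403), each in 3 of 3 samples. Both calls were lost without C2R. The test was added after the values were seen, and 9.9% of all windows passed in the same direction. P1, where lung DP stood above blood DP at Braf, has no WBC and could not enter. The shares of DP above the coverage level near 1.82 differed in the same direction between the tissues of these samples.

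In WBC, the SD of Map2k1 over cells was lowest in C1L, at 0.026 (log2), which stood apart from the other 4 samples and rests on 3 cells. Of 42 groups examined in this way 1 stood apart, and chance marks about 1 in 20.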

How the results depend on the processing

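Counts of windows past the test moved by over 1.5 times in the settings named below. A range at the end of an entry is that with 1 sample left out, given whether or not it moved by as much. CTC minus WBC (1886) gave 3778 without division, and 1736 to 1868 with 1 sample left out. DP minus WBC (1542) gave 2401 with the autosomal mean, 3773 without division, 0 with the median over cells and 0 with lung cells only, and 951 to 1548 with 1 sample left out. CTC minus DP (1134) gave 2627 without division, 690 with no replicate block, 0 with the median over cells, cells below the median noise or blood cells only, and 0 to 1170 with 1 sample left out (0 without C1N, C1R or C2R). Lung minus blood DP (0) gave 0 to 1738. The local deviation (588) gave 1233 without the ceiling filter and 360 with the median over cells, and 327 to 660. The CTC-WBC spread (20) gave 0 with the midpoint bin, 7 with the median of the 3 bins, 36 and 99 with pseudocounts of 0.1 and 0.5, 1 with the autosomal mean, 5 without division, 762 without the ceiling filter, 387 with cells below the median noise, 1 with blood and 0 with lung cells, and 0 to 233. The DP-WBC spread (2130) gave 1241 with the midpoint bin, 1088 with the autosomal mean, 3807 without division and 0 with lung cells, and 1547 to 2049. Blood minus lung of DP minus WBC (946) gave 3738 without division, 491 without the ceiling filter, and 287 to 1335. With the autosomal mean, windows higher and lower were 1835 and 949 for CTC minus WBC and 1676 and 725 for DP minus WBC; without division they were 3693 and 85, and 3701 and 72. The causes were not tested.

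Braf and Nras in CTC minus WBC passed in 19 of 19 alternatives and Nf1 in 18. Map2k2 passed as lower in 14, and as higher without division (0.91). With at least 1 cell per class, CTC minus WBC and CTC minus DP kept the same 5 samples and returned the main fit. Without division, 3778 of 3810 windows passed for CTC minus WBC and 3773 for DP minus WBC. Those fits therefore do not test how firm a call is. Braf in DP minus WBC passed in 17 of 19 and Nras in 12, and in CTC minus DP Braf passed in 13 and Nf1 in 8. Values below are log2. With blood cells only, the sign turned in the CTC-WBC spread at Mapk3 -0.70. With cells below the median noise, the sign turned in the CTC-WBC spread at Braf 0.24, Nras 0.41, Hras 1.01, Map2k1 -0.40, Nf1 -0.0505. Without division, the sign turned in CTC minus WBC at Hras 0.98, Map2k2 0.91, Mapk3 0.97, and in DP minus WBC at Hras 0.76, Map2k1 0.73, Map2k2 0.72, Mapk3 0.72, and in CTC minus DP at Hras 0.22, Map2k2 0.19, Mapk3 0.25, and in lung minus blood DP at Hras -0.54, Map2k1 -0.56, Map2k2 -0.57, Mapk3 -0.55, and in the CTC-WBC spread at Map2k1 -0.16, Mapk3 -0.0765, and in blood minus lung of DP minus WBC at Hras 0.92, Map2k1 0.94, Map2k2 0.94, Mapk3 0.88. With lung cells only, the sign turned in DP minus WBC at Nras -0.0203, Map2k1 0.0128, and in CTC minus DP at Map2k1 -0.0130, and in the CTC-WBC spread at Braf 0.35, Hras 0.60, Nf1 -0.15, and in the DP-WBC spread at Nf1 -0.16. With the median of the 3 bins, the sign turned in the local deviation at Nras 0.0256, and in the CTC-WBC spread at Hras 0.14, and in the DP-WBC spread at Mapk3 -0.0688. With the median over cells, the sign turned in DP minus WBC at Hras 0.0104, and in the local deviation at Mapk3 -0.00561. With the midpoint bin alone, the sign turned in CTC minus WBC at Hras 0.0166, and in DP minus WBC at Hras 0.0326, and in the local deviation at Nras 0.0316, and in the CTC-WBC spread at Mapk3 -0.16, and in the DP-WBC spread at Hras -0.10, and in blood minus lung of DP minus WBC at Nf1 -0.0465. With a pseudocount of 0.5, the sign turned in the CTC-WBC spread at Nras 0.0130, Hras 0.13. With the autosomal mean as scale, the sign turned in CTC minus WBC at Hras 0.0467, Mapk3 0.0352, and in DP minus WBC at Hras 0.0864, Map2k1 0.0606, Map2k2 0.0442, Mapk3 0.0474, and in lung minus blood DP at Map2k1 -0.0147, Map2k2 -0.0293, Mapk3 -0.00142, and in the CTC-WBC spread at Map2k1 -0.51, Map2k2 -0.23, Mapk3 -0.33, and in the DP-WBC spread at Map2k1 -0.17, Map2k2 -0.00904, Mapk3 -0.0852, and in blood minus lung of DP minus WBC at Hras 0.0148, Map2k1 0.0293, Map2k2 0.0263. With 1 sample left out, some values also turned. In the CTC-WBC spread the values were Hras -0.40 to 0.34, Map2k1 -0.14 to 0.54, Mapk3 -0.0525 to 0.27, Nras -0.32 to 0.0509. In DP minus WBC the values were Hras -0.0208 to 0.0121. In blood minus lung of DP minus WBC the values were Hras -0.0753 to 0.00521, Map2k1 -0.11 to 0.0625, Map2k2 -0.0653 to 0.0122. In the local deviation the values were Map2k1 -0.0286 to 0.00704, Nras -0.0131 to 0.0131. In lung minus blood DP the values were Map2k2 -0.0116 to 0.0198. In the DP-WBC spread the values were Mapk3 -0.0139 to 0.30. Depth is unknown. On simulated data the spread tests recovered 0% of changes of 0.5.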
